A study of Mus musculus with 8 samples.

Results

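Interferon-stimulated genes were followed as a list of 38 gene symbols chosen for their known place in the interferon response. The list was chosen with earlier results of these data known. Of the 38, 37 had a row in the table of 32285 genes, and Mx1, which RefSeq annotates as a transcribed pseudogene in the GRCm38.p6 reference, had none. The mice were wild type (WT) or carried the MYC point mutation T58A, which alters a phosphorylation site in the transcription factor MYC, and the 2 genotypes were littermates. Cells negative for lineage markers and positive for Sca1 and Kit (LSK cells, the fraction of bone marrow that holds stem cells and early progenitors) were sorted, and their nuclei were profiled for RNA and open chromatin together with the 10x multiome system. The labels give 2 samples per genotype for RNA, each pooled from 2 mice, and do not give the animals' ages. Only the RNA table was analysed here. It holds 8708 nuclei, named by a barcode and a suffix from 1 to 4. The name of the deposited table carries only the mutant's label, while its 4 suffixes are as many as the RNA samples of both genotypes together, so it is not known whether the nuclei are all T58A or a mix, and every level below is read with that limit. The labels do not say which sample a suffix stands for, so the table was treated as 1 sample, the 4 suffixes are called barcode sets and stand side by side without being replicates, and no WT and T58A nuclei were compared. For the same reason no p-value is given, and every interval is an exact 95% interval that covers counting error only. Those of levels are Poisson intervals. Those of ratios and folds are binomial intervals on the split of counts between the 2 groups compared.

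Interferons are secreted proteins that warn cells of infection. Type I interferon binds the receptor chains Ifnar1 and Ifnar2, the kinases Jak1 and Tyk2 act on STAT proteins such as Stat2, and the complex called ISGF3, which includes Stat2 and Irf9, binds the interferon-stimulated response element (ISRE) in the promoters of its target genes. The targets include sensors of viral RNA, enzymes that degrade it, proteins that block viral entry or release, and the factors themselves. Blood stem cells are known to express part of this set without added interferon, and to enter division when interferon is given.

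The promoters of the listed genes were searched for the core of the ISRE, since these genes are followed together as targets of ISGF3. RefSeq promoter windows of the GRCm38.p6 build, from 250 bases before to 50 bases after a gene's start, were matched by symbol for 30 of the 38 genes. The core GAAANNGAAA, read on either strand, was present in a window of 15 of these 30 genes (50%). Of all 27025 genes with a promoter window, 1079 held it (3.99%). In the bases before the start alone, 11 of the 30 held it, against 3.46% of all genes with a window. The sequences below show it for genes of different roles, with each matched core in capitals and the flanking bases in lower case. On a gene's own strand the core reads GAAANNGAAA or, in the opposite orientation, TTTCNNTTTC.
Isg15, chr4:156200855-156200916, minus strand: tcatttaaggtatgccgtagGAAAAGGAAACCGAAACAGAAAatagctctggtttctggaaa
Oas1a, chr5:120907526-120907565, minus strand: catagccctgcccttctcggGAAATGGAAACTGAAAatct
Bst2, chr8:71537567-71537622, minus strand: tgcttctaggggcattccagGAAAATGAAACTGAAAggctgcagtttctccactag
Irgm1, chr11:48871421-48871470, minus strand: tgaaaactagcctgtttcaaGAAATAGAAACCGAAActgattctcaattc
Ifit1, chr19:34640765-34640833, plus strand: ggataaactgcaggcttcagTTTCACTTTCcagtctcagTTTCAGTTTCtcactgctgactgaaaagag
Rsad2, chr12:26456543-26456592, minus strand: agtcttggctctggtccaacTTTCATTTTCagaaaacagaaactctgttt
Trim30a, chr7:104465200-104465249, minus strand: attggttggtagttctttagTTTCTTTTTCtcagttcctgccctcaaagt
Ddx58, chr4:40239804-40239833, minus strand: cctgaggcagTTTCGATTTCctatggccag
Ifih1, chr2:62646206-62646233, minus strand: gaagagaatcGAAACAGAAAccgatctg
The first 7 stretches lie before the start of the transcript in the promoter table, that of Ddx58 spans it, and that of Ifih1 lies just after it. Isg15 (a ubiquitin-like protein), Oas1a (an oligoadenylate synthetase), Bst2 (tetherin, which holds budding virus on the cell) and Irgm1 (an immunity-related GTPase) show overlapping cores in the direct orientation. Ifit1 (which binds foreign RNA ends), Rsad2 (viperin, a radical SAM enzyme), Trim30a (a TRIM ligase) and Ddx58 (RIG-I, a sensor of viral RNA) show it in the opposite one. A match describes these letters and was not taken as a binding site.

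Nuclei were assigned to classes by UMI counts of marker genes, none of them a listed gene. A UMI (unique molecular identifier) marks 1 captured RNA molecule. The stem cell gate required at least 3 UMIs of Hlf and 5 of Mecom, transcription factors of blood stem cells, and held 1277 nuclei (215, 177, 285 and 600 in barcode sets 1 to 4), of which 228 also met another gate. A separate list of 6 stem cell markers summed to 2493 CPM (UMIs per 1000000 UMIs of the class) in the gate and 1303 CPM outside it, with 1 of the 6 (Fgd5) more than 2-fold higher. On this list megakaryocyte-like nuclei stood above the gate, at 2692 CPM, and every other class below it. The list thus does not set the gate apart from megakaryocyte-like nuclei. The gated classes other than the stem gate ranged from 561 nuclei with Mpo and granule proteases to 67 neutrophil-like nuclei. Monocyte-like, mast-like and T and NK-like nuclei numbered 35, 21 and 4 and were not compared. Nuclei had a median of 4147.5 UMIs, 45723860 in all, of which the 37 genes took 41961 (0.0918%), from 8 for Ifit3 to 7119 for Rnf213. The barcode sets stood apart in quality. Mitochondrially encoded genes took 24.6% and 24.2% of the UMIs of sets 1 and 3 against 9.98% and 9.22% in sets 2 and 4. Apart from this, 36 barcode sequences occurred in more than 1 set, which is not read as a matter of quality.

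In stem gate nuclei the 37 genes together stood at 1192 CPM (95% interval 1171 to 1214). By barcode set the summed level was 978, 1551, 807 and 1273 CPM, so sets 2 and 4 were above sets 1 and 3. Nuclei that met the gate by the smallest margin (3 UMIs of Hlf or 5 of Mecom, 343 nuclei) had 1049 CPM, and 439 nuclei that missed it by 1 UMI in 1 gene had 1017 CPM. The levels of single genes follow, for every gene with at least 200 UMIs in the table, as CPM in sets 1, 2, 3 and 4. Counts were not divided by gene length, so the values of different genes are not ranked against each other. Trim30a, Oas1a and Ifit3 have close paralogs, and Parp9 and Dtx3l overlap on chromosome 16 (35938470 to 35972621 and 35926515 to 35939027 in GRCm38.p6). How reads shared by such genes were counted is not given in the sources used here, so their values carry that uncertainty.

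Among the RNA sensors, Ddx58 stood at 53.6, 64.0, 29.6 and 54.6 CPM. Ifih1 (MDA5, which binds long double-stranded RNA) stood at 45.4, 67.8, 40.1 and 52.6 CPM. Dhx58 (LGP2, their regulator) stood at 5.77, 6.91, 6.24 and 8.13 CPM. The lowest Ddx58 and Ifih1 values were in set 3 and the highest in set 2, while Dhx58 showed no such gap. Eif2ak2 (PKR, a kinase that halts translation on binding double-stranded RNA) stood at 113, 146, 94.1 and 131 CPM. Adar, which edits double-stranded RNA, stood at 49.5, 70.3, 54.6 and 72.8 CPM. Trim25, a ubiquitin ligase that acts with RIG-I, stood at 40.4, 38.9, 44.2 and 47.5 CPM. Trim25 was thus close to level across the sets, and Eif2ak2 and Adar were higher in sets 2 and 4. Zbp1, a sensor of Z-form nucleic acid, had 16 UMIs in the gate.

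The factors that carry the signal were present in all 4 sets. Stat2 stood at 47.0, 52.1, 29.1 and 46.9 CPM. Irf9 stood at 17.3, 34.5, 18.2 and 30.3 CPM. Only set 3 stood apart for Stat2, whereas Irf9 was lower in both sets 1 and 3. Irf7, which amplifies interferon production, had 35 UMIs.

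The oligoadenylate synthetases make the signal that activates RNase L, and Oasl2 is an OAS-like protein of the same family. Oasl2 stood at 16.5, 46.5, 7.80 and 30.1 CPM. Oas1a stood at 5.77, 20.1, 3.64 and 8.51 CPM. Oas2 stood at 5.77, 22.6, 2.08 and 18.7 CPM. All 3 genes were highest in set 2 and lowest in set 3, with sets 2 and 4 both above sets 1 and 3. Oas3 had 66 UMIs and the same highest and lowest sets. Of the Ifit proteins, which bind viral RNA, Ifit2 stood at 13.2, 15.1, 11.4 and 12.5 CPM and was nearly level, Ifit1 had 19 UMIs and Ifit3 had 3. Usp18, which removes ISG15 from proteins and damps receptor signalling, stood at 4.95, 12.6, 1.56 and 8.51 CPM, with the high values again in sets 2 and 4. Isg15 itself had 17 UMIs.

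Parp14, Parp9 and Dtx3l belong to the ADP-ribosylation branch, in which the ligase Dtx3l works as a partner of Parp9. Parp14 stood at 66.8, 84.1, 48.4 and 79.8 CPM. Parp9 stood at 48.7, 65.3, 47.9 and 52.6 CPM. Dtx3l stood at 28.9, 48.3, 22.9 and 32.3 CPM. Each was highest in set 2 and lowest in set 3.

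The effectors form the largest group of the list. Ifi44 stood at 13.2, 47.1, 10.9 and 23.1 CPM. Ifitm3, which blocks fusion of entering virus, stood at 30.5, 77.2, 18.7 and 40.7 CPM. Samd9l, a growth-restraining factor mutated in inherited marrow failure, stood at 38.8, 84.8, 28.6 and 55.6 CPM. In all 3, set 2 was well above the other sets. Trim30a stood at 57.7, 122, 47.3 and 103 CPM. Rsad2 stood at 4.95, 18.2, 6.24 and 14.9 CPM. Xaf1, a pro-apoptotic protein, stood at 9.90, 22.6, 9.36 and 18.3 CPM. For these genes sets 2 and 4 lay together, and apart from sets 1 and 3. Helz2, a helicase, stood at 21.4, 29.5, 8.32 and 21.4 CPM. Ifi27 stood at 9.07, 27.0, 11.96 and 23.6 CPM. Ifi35 stood at 9.90, 21.3, 10.9 and 20.8 CPM. Ifi27 and Ifi35 followed the pattern of Xaf1, and Helz2 was low only in set 3. Bst2 stood at 19.8, 32.6, 15.6 and 17.8 CPM and was high only in set 2. Rnf213, a large ligase that coats invading bacteria and vesicles, stood at 160, 188, 151 and 192 CPM, close together by comparison. Cmpk2, a nucleotide kinase and the chromosomal neighbour of Rsad2, had 62 UMIs.

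Of the immunity-related GTPases, which attack vacuoles that hold pathogens, Irgm1 stood at 12.4, 23.9, 8.32 and 17.4 CPM and Ifi47 at 4.12, 18.2, 5.20 and 6.81 CPM. Igtp had 64 UMIs. Ifi47 was high in set 2 alone.

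**Figure D1:**
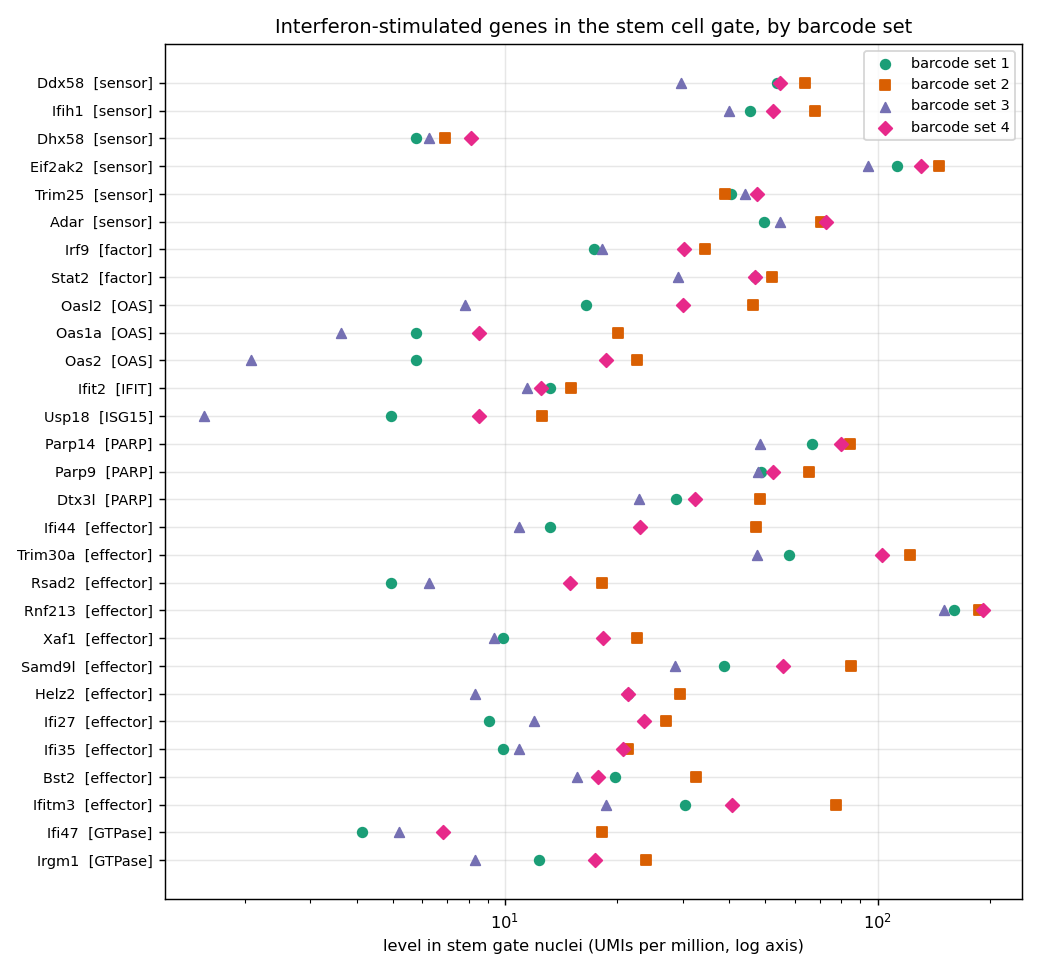
Level of each interferon-stimulated gene with at least 200 UMIs in the table, in stem gate nuclei, in CPM on a log axis, with 1 symbol per barcode set and the gene's role in brackets. Set 2 and set 4 symbols lie to the right of those of sets 1 and 3 for most genes, with small gaps for Ifit2 and Rnf213.

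For 27 of the 32 listed genes with at least 50 UMIs in the gate, sets 2 and 4 were both above sets 1 and 3, as were 57.6% of the 10354 genes measured there. With totals taken over non-mitochondrial UMIs the count was 22 of 32, against 38.6% of all genes. Set 2 was the highest set for 26 of the 32 on that scale, against 38.4% of all genes. In stem gate nuclei the mitochondrial share was 18.6%, 9.11%, 20.3% and 7.97% in sets 1 to 4. Its part in these differences beyond the change of total was not tested, and the labels do not say which genotype or mice a set holds.

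Classes were compared with the stem gate. Calls and log2 ratios used CPM plus 10, while the folds and other ratios printed are of CPM without that addition. A gene was called lower or higher at 1.5-fold with the same direction in every barcode set that had at least 20 nuclei on both sides, and genes with at least 50 UMIs over both groups count as measured. Pooled values mix barcode sets that differ in level and in their share of each class, so a pooled ratio or fold can lie outside the range of the set values, which are given beside it. Some counts below are repeated under another setting or with a set left out. The share of all genes under those settings is not given, so they show only how far the count moved. Nuclei with granule proteases had the clearest difference among the larger classes. Their summed level was 649 CPM (487, 911, 365 and 687 in sets 1 to 4), a ratio of 0.544 to the stem gate (95% interval 0.522 to 0.567) and of 0.498, 0.587, 0.453 and 0.540 in the sets. Of 32 measured genes 15 were lower and 1 higher, where 13.8% of the 10981 measured genes of the table were lower and 3.83% higher. The median log2 ratio was -0.56 for the listed genes and -0.13 for all genes.

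By role, 3 of 6 measured sensors, 2 of 4 OAS genes, 1 of 3 of the ADP-ribosylation genes, 8 of 12 effectors and 1 of 3 GTPases were lower, and neither of the factors Stat2 and Irf9 was. Samd9l stood at 9.47 CPM in granule nuclei and 53.0 CPM in the stem gate, 5.60-fold lower (95% interval 4.07 to 7.89). Ddx58 was 4.18-fold lower (3.15 to 5.66), at 12.2 CPM, with 9.64, 14.7, 6.59 and 14.5 CPM in sets 1 to 4. Each of these lay below every set's value in the stem gate. Ifi44 was 4.22-fold lower (2.76 to 6.71) and Oas2 4.86-fold lower (2.75 to 9.34). The others called lower were Oasl2, Parp14, Eif2ak2, Ifih1, Trim30a, Xaf1, Rsad2, Rnf213, Ifi35, Irgm1 and Helz2. Bst2 went the other way, at 37.4 CPM against 19.97 CPM in the stem gate. Its 162 UMIs came from 122 of the 561 nuclei, and its levels in sets 1 to 4 were 26.5, 53.2, 17.1 and 41.8 CPM. Adar, at 62.1 CPM against 66.1 CPM, had a ratio of 0.940 (0.811 to 1.08).

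Mpo-primed nuclei, which carry Mpo with few UMIs of the proteases, lay between. The summed level was 778 CPM, or 0.652 of the stem gate (0.622 to 0.684), with ratios of 0.761, 0.712, 0.522 and 0.684 in sets 1 to 4. In set 1, 96 of the 474 UMIs of this sum came from 1 nucleus, and the ratio without it was not computed. Of 32 measured genes 9 were lower and none higher, where 6.81% of all measured genes were lower and 0.931% higher. These were Samd9l (2.82-fold), Ddx58 (2.30-fold), Ifi44, Ifih1, Trim30a, Ifitm3, Parp9, Helz2 and Parp14. All but Ifitm3 and Parp9 were also lower in granule nuclei. The highest ratios were those of Bst2 (23.0 against 19.97 CPM), Ifi47 and Adar, none of them called. The count of 9 was 14 with CPM plus 5, 5 with CPM plus 20, and 5 over sets 1 and 3 alone.

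Megakaryocyte-like nuclei (94) and erythroid progenitor-like nuclei (384) were also lower. The megakaryocyte-like sum was 708 CPM, a ratio of 0.594 (0.540 to 0.651), but it was 1.07 in set 1 against 0.519 and 0.510 in sets 3 and 4. There 13 of 32 genes were lower and none higher, where 13.7% of all genes were lower and 4.26% higher. Parp14 was 3.23-fold lower (1.94 to 5.79) at 22.6 CPM, and Rsad2 had 0 UMIs, at least 2.78-fold lower with 3 UMIs over the class as the floor. Without set 4 the count was 7. In erythroid progenitor-like nuclei the sum was 662 CPM, a ratio of 0.556 (0.532 to 0.580), and 0.796, 0.600 and 0.656 in sets 1, 3 and 4. There 14 of 32 genes were lower and none higher, beside 28.3% and 6.94% of all genes. Ifi44 had 3 UMIs (0.798 against 23.4 CPM), and Ifitm3 stood at 4.52 against 41.0 CPM, 9.08-fold lower (5.60 to 15.7). Trim30a stood at 16.7 against 89.8 CPM, 5.36-fold lower (4.15 to 7.04). In sets 1, 3 and 4 Trim30a stood at 14.9, 11.8 and 30.8 CPM against 57.7, 47.3 and 103 CPM, smaller gaps than the pooled one. Stat2 (47.6 against 44.3 CPM) and Rnf213 (177 against 180 CPM) were not called. Over sets 1 and 3 alone the count was 7. Mitochondrial genes took 27.7% of the UMIs of erythroid progenitor-like nuclei and 11.8% of those of the stem gate. Scaled to non-mitochondrial UMIs, the erythroid progenitor-like sum was 916 CPM against 1351 CPM in the stem gate. In sets 1, 3 and 4 it was 1137, 707 and 977 CPM against 1201, 1013 and 1383 CPM. The sum thus stayed lower in each of these sets, but the gap in set 1 was small.

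Across these 4 classes, 3 genes were lower in all: Ddx58, Trim30a and Parp14. Another 7 were lower in 3 (Oasl2, Ifi44, Oas2, Eif2ak2, Xaf1, Samd9l and Helz2), 7 in 2, 4 in 1 and 16 in none, 5 of those 16 for want of UMIs. Stat2, Trim25, Bst2 and Adar were measured in all 4 and lower in none. So were Usp18, Dhx58, Oas1a, Oas3, Cmpk2, Ifi47 and Igtp, but these stood below 10 CPM in the stem gate, where adding 10 CPM leaves little room for a call. Usp18, for one, stood at 2.08 CPM in granule nuclei (0.9502 to 3.94) against 7.39 CPM in the stem gate (5.80 to 9.27). The classes share the stem gate as their reference, so these counts are not independent of each other. The share of all genes lower in several of these classes was not computed. No excess of the listed genes is therefore read from these counts. The ISRE core was in a promoter window of 7 of the 13 matched genes lower in 2 or more classes and of 8 of the 17 others, or 5 of 13 of the others that were measured in all 4.

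Lymphoid nuclei were close to the stem gate. Early lymphoid-like nuclei (Dntt without Il7r, 275) summed to 1196 CPM, a ratio of 1.00 (0.954 to 1.05), and 1.22, 0.968, 1.04 and 0.995 in sets 1 to 4. Nuclei with Dntt and Il7r (238) summed to 1314 CPM, a ratio of 1.10 (1.05 to 1.16), and 0.968, 1.04, 0.888 and 1.204 in sets 1 to 4. Of the 656 UMIs of this sum in set 2, 83 came from 1 nucleus. The ratios without it were not computed, so no rise of the class as a whole is read from them. In early lymphoid-like nuclei 1 of 32 genes was lower and none higher, where 4.89% of all genes were lower and 1.96% higher, and that gene was Samd9l (28.3 against 53.0 CPM). Without set 4 the count was 3. In Il7r nuclei Samd9l and Ifih1 were lower and Trim25 higher, 2 and 1 of 32, where 7.42% of all genes were lower and 3.38% higher. Trim25 stood at 77.1 against 44.6 CPM, a ratio of 1.73 (1.40 to 2.12), with UMIs in 82 of the 238 nuclei. Ifi44 stood at 48.5 against 23.4 CPM but was lower in set 1, so it was not called. Of its 73 UMIs 8 came from 1 nucleus, without which the level was 43.3 CPM.

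Later B lineage-like nuclei (99) were lower, at 783 CPM, a ratio of 0.657 (0.595 to 0.723) and of 0.919, 0.762 and 0.662 in sets 1, 3 and 4. There 8 of 32 genes were lower and 1 higher, where 17.7% of all genes were lower and 6.09% higher. Ifih1 had 4 UMIs, 7.25 against 51.7 CPM. Ifitm3 had 5 UMIs, 9.06 against 41.0 CPM. Trim25 was again the gene called higher, at 76.1 CPM (1.71, 1.21 to 2.34). Without set 1 the count lower was 13.

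Dendritic-like nuclei (83, with MHC class II genes) summed to 1323 CPM, a ratio of 1.11 (1.01 to 1.22), and 1.65 in set 3 and 1.04 in set 4. Single genes were called in both directions. Samd9l stood at 153 CPM against 53.0 CPM in the stem gate, a ratio of 2.88 (2.13 to 3.81). Stat2 stood at 127 against 44.3 CPM, a ratio of 2.87 (2.06 to 3.91). Trim30a stood at 223 against 89.8 CPM, a ratio of 2.49 (1.95 to 3.13), and Irf9 at 56.5 against 27.1 CPM, a ratio of 2.09 (1.26 to 3.29). Each rested on UMIs from at least 17 nuclei. Only sets 3 and 4 had 20 nuclei, and Trim30a stood at 221 and 235 CPM in them. These 4 of 32 compare with 11.6% of all genes called higher, and 10 of 32 were lower beside 27.4% of all genes, both near the background. Of the 10, only Ddx58 (5 UMIs) and Ifih1 (8 UMIs) had more than 2 UMIs in the class, and without set 4 the count lower was 5.

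Plasma-like (162), late erythroid-like (69) and neutrophil-like (67) nuclei had 20 nuclei in sets 1 and 3 alone. Their summed levels in those sets were 0.541 and 0.535, 0.826 and 0.636, and 0.685 and 0.738 of the stem gate's. In plasma-like nuclei 21 of 32 genes were lower and 1 higher, where 51.7% of all genes were lower and 4.54% higher. In late erythroid-like nuclei 18 were lower and 2 higher, beside 51.6% and 13.3%. In neutrophil-like nuclei 19 were lower and 1 higher, beside 44.3% and 8.48%. Lower calls were thus common over the whole table in all 3, and nothing is read from the listed genes' counts.

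Nuclei outside every gate were split by UMIs of the mitosis genes Top2a and Mki67. Those with neither (1835) had 1026 CPM, a pooled ratio of 0.861 (0.833 to 0.890), but 0.991, 0.868, 0.951 and 1.18 in sets 1 to 4, all above the pooled value. There 0 of 33 genes were lower or higher, where 2.82% of all genes were lower and 0.351% higher. No test was made there, since the table is 1 sample, and the count lower was 2 without set 3 and 1 without set 4. Those with 1 UMI (936) had a pooled ratio of 0.813 (0.779 to 0.847), and 0.933, 0.906, 0.874 and 0.957 in sets 1 to 4, with 0 of 32 lower or higher, where 2.39% of all genes were lower and 0.157% higher. Those with at least 2 UMIs (1989) had 785 CPM, a pooled ratio of 0.659 (0.640 to 0.678), and 0.762, 0.807, 0.721 and 0.750 in sets 1 to 4, all below 1 and above the pooled value. There 7 of 33 were lower, where 3.91% of all genes were, and none higher, where 0.495% were: Ifi44 (6.23, 27.5, 3.40 and 9.03 CPM in sets 1 to 4), Ddx58, Ifitm3, Trim30a, Ifi27, Samd9l and Parp14. With totals over non-mitochondrial UMIs the count was 4.

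**Figure D2:**
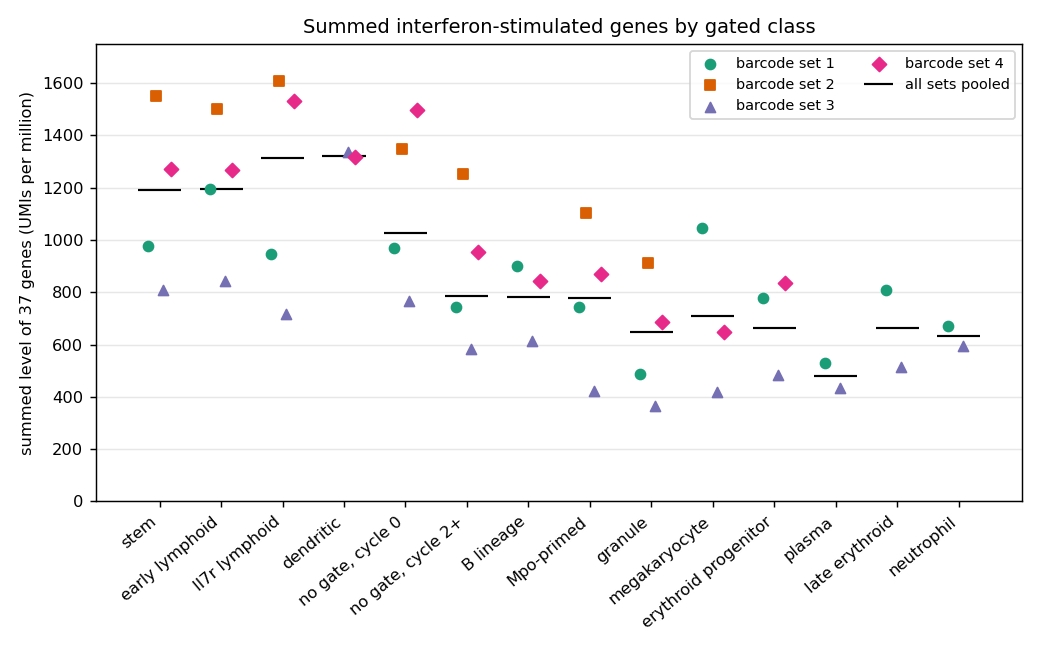
Summed level of the 37 genes in each gated class, in CPM, with 1 symbol per barcode set that had at least 20 nuclei and a line for all sets pooled. In the stem gate the symbols run from 807 to 1551 and in the granule class from 365 to 911, with set 2 highest and set 3 lowest in both, and pooled lines also reflect which sets a class comes from.

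**Figure D3:**
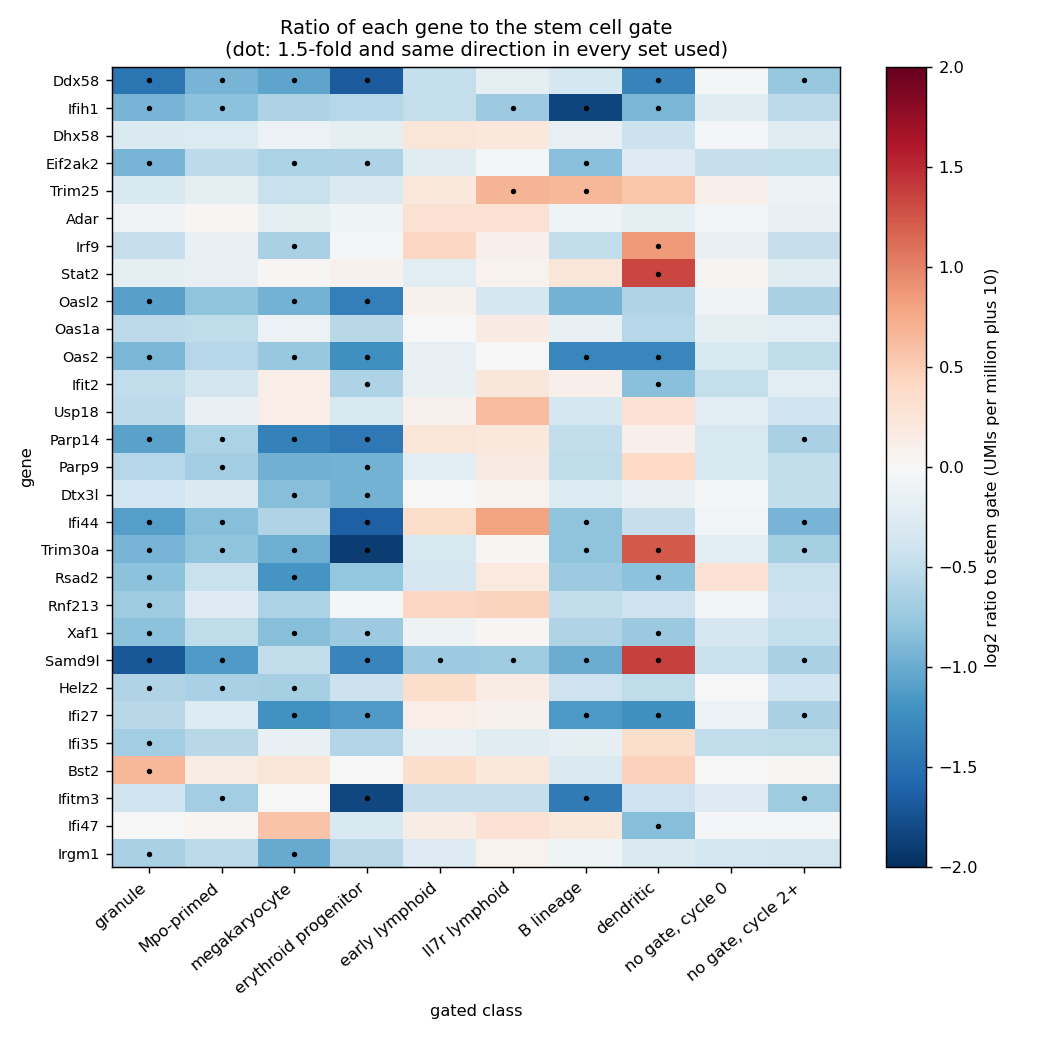
Log2 ratio of each gene's level (CPM plus 10) in a class to that in the stem gate, for genes with at least 200 UMIs, grouped by role. A dot marks a call (1.5-fold and the same direction in every barcode set used). Ddx58, Parp14 and Trim30a are dotted in all of the first 4 columns, and Trim30a, Samd9l, Stat2 and Irf9 are above 0 in the dendritic-like column.

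Within the stem gate, cycling and resting nuclei differed in the same direction as outside it. The 356 nuclei without Top2a or Mki67 UMIs summed to 1363 CPM (1307 to 1420), and the 690 with at least 2 to 1093 CPM (1068 to 1117). By barcode set the resting nuclei had 1092, 2045, 964 and 1442 CPM and the cycling nuclei 928, 1360, 736 and 1164 CPM, so the cycling value was the lower in each set. Of 31 measured genes 2 were lower in cycling nuclei, and none higher, where 2.61% and 4.4% of the 10018 genes were. Ifi44 stood at 16.9 against 37.1 CPM, 2.20-fold lower (1.59 to 3.02), and Rsad2 at 8.94 against 22.5 CPM, 2.52-fold lower (1.63 to 3.84). Cycling nuclei had a median of 9155.5 UMIs and resting ones 3971.5, and the part of depth was not tested. Resting here means only that no UMI of the 2 mitosis genes was counted. The count of listed genes lower was 4 without set 1 and 1 without set 2. The 2 parts also differed in stem cell genes. Of 7 such genes, Hlf and Mecom of the gate among them, 6 were lower in cycling nuclei, with a median log2 ratio of -0.79. Vwf, the gene of a clotting factor that marks a platelet-biased stem cell group, made little difference to the pooled sum: 114 nuclei with a Vwf UMI had 1134 CPM (1074 to 1196) and 1163 without had 1200 CPM (1177 to 1223). In sets 1 to 4 the sums were 809, 1403, 786 and 1387 CPM with Vwf against 1002, 1560, 812 and 1258 CPM without. The direction thus turned in set 4, and sets 1 and 2 held only 17 and 8 nuclei with Vwf. The medians were 9976.5 UMIs with Vwf and 6203 without, and the part of depth was not tested. Between these 2 groups 1 of 32 was lower (Dtx3l, 19.5 against 34.4 CPM, in sets 3 and 4), where 1.27% of genes were, none was higher, where 1.1% were, and 5 were lower without set 4.

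Co-variation was described over stem gate nuclei thinned at random to 2000 UMIs each, 1261 nuclei after 16 shallower ones were left out, with each set's mean removed. At that depth the 37 genes gave a median of 2 UMIs per nucleus, 176 nuclei had none and the highest had 19. The variance of the sum was 1.66 times the sum of the single genes' variances, where 1 would mean genes that vary independently. The list was split in 2 by alphabetical order, and the sums of the parts correlated with r = 0.28 over the nuclei, which share libraries and depth. Within sets the r was 0.018, 0.51, 0.31 and 0.21 in sets 1 to 4. Over 10 other random thinnings the pooled r ran from 0.23 to 0.33 and those of sets 1 to 4 from 0.022 to 0.31, 0.33 to 0.45, 0.17 to 0.36 and 0.17 to 0.28. The value of 0.51 in set 2 was thus above all of its other thinnings, and that of set 1 below all of its. Without the 1% of nuclei with the highest sum, r was 0.15. Each r is a description of sparse counts.

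**Figure D4:**
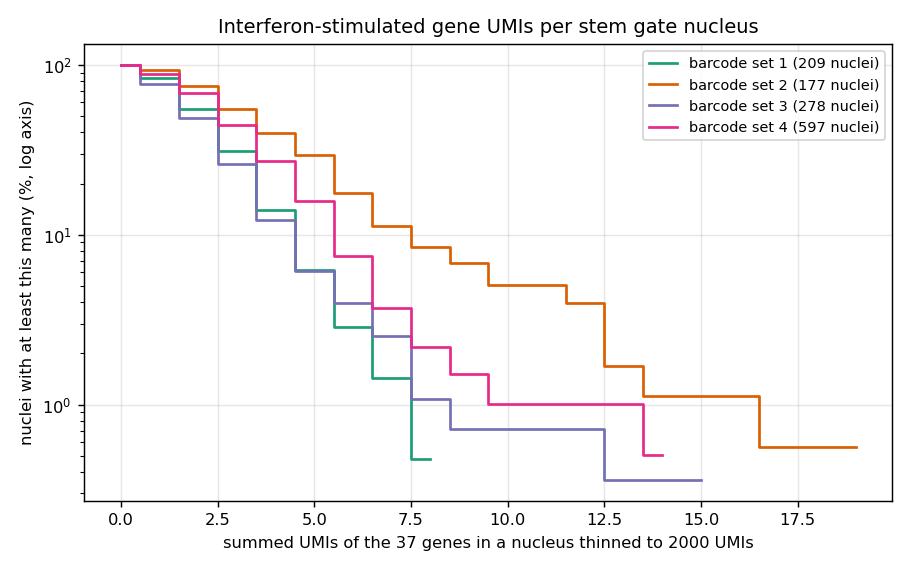
Share of stem gate nuclei, in percent on a log axis, that hold at least a given number of UMIs of the 37 genes after thinning to 2000 UMIs, with 1 line per barcode set. The line of set 2 (177 nuclei) lies above the others and reaches 19 UMIs, and that of set 1 (209 nuclei) ends at 8.

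Among the 26 genes with at least 20 UMIs at that depth, 25 had a correlation above 0 with the sum of the others, with a median of 0.10. The highest were Ifih1 (0.20), Oasl2 (0.19), Trim30a (0.17), Rnf213 (0.17), Ifi44 (0.16) and Parp14 (0.15). Ifih1 and Oasl2 were above 0.1 in each of the 4 sets. Adar (0.012), Helz2 (0.0092), Ifi35 (0.016) and Ifit2 (-0.011) were near 0. Of 105 pairs among the 15 most counted genes 81 were above 0 and 5 above 0.1, led by Oasl2 with Parp14 (0.13), found together in 17 nuclei.

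The sum was then set against every other gene with a UMI in at least 5% of those nuclei, 5632 in all, by the mean of the 4 within-set correlations. Their median was -0.0017. The highest was Mndal (0.17), an interferon-inducible gene of the Ifi200 family, and the next were Hlf (0.17), Ddx60 (0.15), Ifi203 (0.15), Epsti1 (0.14), Mecom (0.14), Pnpt1 (0.14), Trafd1 (0.14), Nlrc5 (0.13) and Gm20559 (0.13). Mndal, Ddx60, Ifi203 and Epsti1 are on a second list of interferon-stimulated genes, and Hlf and Mecom are the genes of the gate. At the other end stood Cdk6 (-0.17), the G1 kinase, Ezh2 (-0.13), Myef2, Bub1, Cep128, Knl1, Cenpe, Rbbp8, Nsd2 and Asxl1. The second list, like the first, was chosen with earlier results of these data known. Its 72 genes that had a row were summed and not used in the first sum. Their sum correlated with that of the 37 at r = 0.36, and at 0.22, 0.49, 0.38 and 0.31 in sets 1 to 4.

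Co-variation was not confined to the stem gate. The same r between the 2 parts of the list was 0.22 in granule (555 nuclei), 0.44 in Mpo-primed (394), 0.34 in early lymphoid-like (265), 0.64 in Il7r (236), 0.19 in erythroid progenitor-like (382) and 0.067 in plasma-like nuclei (149). It was 0.39 in 1242 ungated nuclei without mitosis UMIs. No difference between these values was tested. At a depth of 2000, 1 Il7r nucleus had 45 UMIs of the list, where the class median was 2. The highest nucleus had 37 among those ungated nuclei (median 2) and 29 among Mpo-primed nuclei (median 1). The part of such nuclei in these r values was not tested.

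Nuclei with at least 10 UMIs of the list at a depth of 2000 were rare, 52 of 7548 (0.689%), with 1160 shallower nuclei left out. This is a range and not a cell type: 69 nuclei had 8 or 9 UMIs and 19 had 10 or 11. Sets 1 to 4 held 10, 15, 4 and 23 of them. By class, 17 were in the stem gate, 4 were Il7r, 2 each were Mpo-primed, early lymphoid-like and dendritic-like, and 9, 10 and 6 were ungated nuclei with 0, 1 and at least 2 mitosis UMIs. None of the 555 granule or 382 erythroid progenitor-like nuclei reached it, which allows a share of up to 0.541% and 0.785%. Only 4 nuclei had 20 or more. At full depth, an Il7r nucleus of set 2 had 83 UMIs of 22 listed genes among 4524 (1.83%), led by Rnf213 with 19, Ifi44 with 8 and Parp14 with 8. An ungated nucleus of set 4 had 69 of 3326 (2.07%), led by Rsad2 with 16 and Ifih1 with 14. Another of set 4 had 51 of 2966 (1.72%), led by Rsad2 with 12. An Mpo-primed nucleus of set 1 had 96 of 7162 (1.34%), led by Rnf213 with 33 and Ifih1 with 16. These 4 nuclei came from 3 classes and 3 sets.

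The 72 genes of the second list, which did not choose these nuclei, stood at 9317 CPM in the 52 and 3211 CPM in the rest at the same depth. In sets 1 to 4 the values were 7650, 11400, 8625 and 8804 CPM against 3087, 4636, 2567 and 3591 CPM, higher in each set. Epsti1 stood at 904 against 140 CPM and Ddx60 at 423 against 66.1 CPM. The class I genes H2-K1 (712 against 519 CPM) and B2m (625 against 377 CPM) differed less. The 52 nuclei had a median of 3877.5 UMIs before thinning and a mitochondrial share of 9.05%, against 4668 UMIs and 17.8% in the rest. The part of these in the difference was not tested. Over all nuclei the mean of the second list was higher at each step of the sum of the first, from 5.24 UMIs at 0 UMIs of the first to 7.49 at 3 or 4 and 18.6 at 10 or more.

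**Figure D5:**
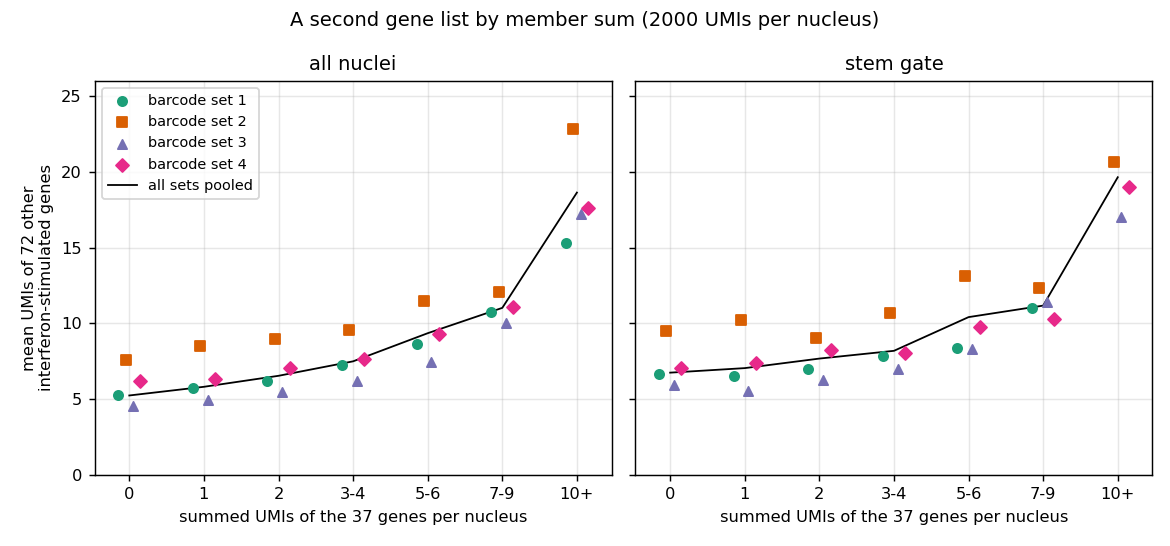
Mean UMIs of 72 other interferon-stimulated genes per nucleus against the summed UMIs of the 37 listed genes, both at 2000 UMIs per nucleus, in all nuclei (left) and in the stem gate (right), with 1 symbol per barcode set and a line for all sets pooled. In all nuclei the pooled mean goes from 5.24 to 18.6, and in the stem gate from 6.74 to 19.6.

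The rest of the pathway was read from lists of receptors and kinases, sensing genes, interferon factors, ligands and brakes. None of the 9 interferon genes reached 50 UMIs in any comparison, so no ligand was measured. In granule nuclei 4 of 10 measured receptor and kinase genes were lower and 1 higher, and 24 of 54 genes of the second list were lower and 3 higher. Jak2 stood at 65.3 against 125 CPM and the interferon gamma receptor chain Ifngr1 at 135 against 64.9 CPM, the one higher. Irf2, a repressor of the response, stood at 136 against 298 CPM. In erythroid progenitor-like nuclei 36 of 54 of the second list were lower and 2 higher, all 4 measured genes of the list of other interferon factors (Irf1, Irf2, Irf8 and Nlrc5) were lower, and the receptor chains Ifnar1 (17.0 against 39.1 CPM) and Ifnar2 (71.5 against 156 CPM) were lower. In Il7r nuclei Ifnar2 (308 against 156 CPM), Ifnar1 (67.8 against 39.1 CPM) and Il10rb (77.7 against 36.0 CPM) were higher. In early lymphoid-like nuclei 3 of 55 of the second list were lower and none higher. In dendritic-like nuclei 7 of 10 receptor and kinase genes were higher and none lower, among them Ifngr1 (410 against 64.9 CPM), Jak2 (537 against 125 CPM) and Tyk2 (122 against 38.5 CPM), and Irf8, a factor of dendritic cells, stood at 1210 against 35.8 CPM. Of the second list 18 of 55 were lower and 16 higher there. The background shares of these classes are those given above.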

How the data were processed

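Per the labels' protocols, nuclei of sorted LSK cells were prepared with digitonin and barcoded on the 10x multiome system. The deposited table holds UMI counts, whole numbers for 32285 genes in 8708 nuclei. Cell Ranger ARC, Seurat, Signac and the mm10 build are named in the submitters' processing notes. Versions, annotation and nucleus filters are not given in the sources used here. No column of per-sample values was left out (0).

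From these counts, UMIs were summed per class and barcode set and divided by total UMIs (CPM), with mitochondrial genes left out of the background. A call needed 1.5-fold on CPM plus 10, the same direction in every set with 20 nuclei, and 50 UMIs. Classes under 50 nuclei were not compared. Nuclei outside the stem gate that met several gates (179) were left out. No doublet caller was run, and leaving out the 5% deepest nuclei was an alternative. Nuclei were thinned to 2000 UMIs for co-variation. The rules were tested on simulated data. Python 3.11.15, numpy 2.4.6, scipy 1.17.1 and matplotlib 3.10.9 were used.

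The members and lists were chosen with earlier results of these data known. Named genes were the members with at least 200 UMIs, the 3 lowest and 3 highest ratios per class, and up to 10 other genes most correlated with the sum. Other scalings, pseudocounts, gates, depths and each set left out were tried. One gene of the wider pathway is not reported here.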

Additional observations from a re-analysis of the deposited data

How the results depend on the processing

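No paired analysis was possible because no label says which sample, genotype or replicate number a barcode set stands for, and the planned WT and T58A tests, with and without the replicate block, were not run for the same reason. The counts in this section stand without the share of all genes called lower under the same setting, which is not given here. They show how far a count moved, and no excess of the listed genes is read from them. With CPM plus 5, members lower numbered 14 in Mpo-primed nuclei and 2 in ungated nuclei without mitosis UMIs. With CPM plus 20 they numbered 5 in Mpo-primed, 8 in megakaryocyte-like, 4 in dendritic-like and 3 in ungated cycling nuclei. Gates on counts scaled to 5000 UMIs gave 14 in Mpo-primed, 4 in early lymphoid-like, 4 in Il7r and 14 in B lineage-like nuclei, and stricter gates gave 13 in the last. Thinning gave 7 in megakaryocyte-like, 3 in early lymphoid-like, 4 in Il7r, 6 in dendritic-like, 2 in ungated resting and 2 in Vwf nuclei. Without mitochondrial UMIs in the total the count was 4 in ungated cycling and 0 in Vwf nuclei. Without the 5% deepest nuclei it was 3 in early lymphoid-like nuclei. With equal weight per set it was 2 there and 2 in ungated cycling nuclei. The next 2 choices were added after seeing the data. Sets 2 and 4 alone gave 2 in early lymphoid-like, 1 in Il7r, 14 in B lineage-like, 2 in ungated resting and 2 in ungated cycling nuclei. Sets 1 and 3 alone gave 5 in Mpo-primed, 5 in megakaryocyte-like, 7 in erythroid progenitor-like, 2 in early lymphoid-like, 4 in Il7r, 3 in B lineage-like, 2 in dendritic-like and 2 in ungated cycling nuclei, and turned the dendritic-like median log2 ratio to 0.37. The granule count stayed within 1.5 times of 15 under every alternative run.

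With each barcode set left out in turn, the counts lower ran from 7 to 17 in megakaryocyte-like, 1 to 3 in early lymphoid-like, 7 to 13 in B lineage-like, 5 to 14 in dendritic-like and 0 to 2 in ungated resting nuclei, and within the stem gate from 1 to 5 by Vwf and from 1 to 4 by cycling. The granule count ran from 12 to 19 and the r between the 2 parts of the list from 0.20 to 0.35.

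With 1 mismatch allowed, 26 of the 30 matched genes held the core in a promoter window, against 38.9% of all genes with a window. Among the values that answer a comparison, 190 alternative values stayed within 1.5 times of the reported count or within its spread and 45 did not, and no cause was tested. Depth limits what can be said of Isg15, Ifit1, Ifit3, Zbp1 and Irf7, and of the small classes. Of the 10 genes called lower in dendritic-like nuclei, only Ddx58 and Ifih1 had more than 2 UMIs.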

Other observations

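Values of single genes follow for the small classes that only sets 1 and 3 represent, and no result is read from them. In plasma-like nuclei 1 of 32 listed genes was called higher, where 4.54% of all genes were higher and 51.7% lower. In late erythroid-like nuclei 2 of 32 were called higher, where 13.3% of all genes were. In plasma-like nuclei Helz2 stood at 41.1 against 20.2 CPM, with UMIs in 23 of 162 nuclei, and at 49.8 and 42.0 CPM in sets 1 and 3 against 21.4 and 8.32 CPM. Rnf213 stood at 68.4 and 49.4 CPM in these sets against 160 and 151 CPM. In late erythroid-like nuclei Rsad2 stood at 129 against 12.6 CPM, but its 18 UMIs came from 6 of 69 nuclei and 9 of them from 1 nucleus, without which the level was 64.9 CPM. Its neighbour on chromosome 12, Cmpk2, had 5 UMIs in 5 nuclei (35.7 against 6.19 CPM).

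Over 15 classes, the genes outside the list whose log2 CPM ran most like that of the summed list were Arhgap18 (r = 0.96, from 55.9 to 449 CPM), Avl9 (r = 0.92, from 41.1 to 122 CPM), Zup1 (r = 0.90, from 82.2 to 198 CPM) and Ccser1 (r = 0.90, from 14.3 to 1312 CPM), of 10351 genes. The classes share libraries and differ in depth, and no test was made.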
